A study of Mus musculus with 189 samples.

Results

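Serpins and cystatins are protein inhibitors of proteases, and mast cells store large amounts of protease in their granules. The 9 genes described here are 6 serpins (Serpinb1a, Serpinb6a, Serpinb6b, Serpinb9, Serpine2 and Serping1) and 3 cystatins (Cst3, Cst7 and Cstb), chosen by name out of 46078 gene rows. Their RNA was measured in single cells of the mouse peritoneal cavity and set beside protease RNA of the same cells. All cells came from C57BL/6 females, 4 mice in all, with no treatment or transgene labelled. Both gates took live Lin- cells that carried c-Kit (the stem cell factor receptor) and FcεRI (the high-affinity IgE receptor). The 94 mature mast cells (mature cells below) were integrin β7 low with high side scatter, and the 95 basophil-mast cell progenitors (BMCPs), whose name joins both lineages, were integrin β7 high with low side scatter. No label ties a cell to a mouse, so each group counts as 1 pooled sample. No test between the groups was possible, differences are given by size, and all intervals are 95% and cover counting error only.

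A serpin presents a bait loop to a serine protease, is cut, and traps the enzyme in a dead complex. Clade B serpins stay inside the cell, where they can neutralise granule proteases that leak into the cytosol. Cystatins instead block the active site of papain-like cysteine proteases such as the lysosomal cathepsins. In mast cells the main granule proteases are chymases, tryptases and a carboxypeptidase, and cathepsin C trims several granule serine proteases into active form.

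Reads were scaled to CPM, reads of a gene per 1000000 reads on the endogenous genes of that cell. The 94 mature cells held 561600 to 2152221 endogenous reads each, and 93 BMCPs held 344022 to 2091665. BMCP number 6 with 3978 reads and BMCP number 93 with 36972 were left out. The summed level of 10 mast cell identity genes was 114985 to 331477 CPM in mature cells and 354 to 328424 CPM in BMCPs. BMCP numbers 46 and 80 went against their label. Their summed B cell gene levels were 70522 and 75581 CPM, Serpinb1a was at 791 and 15.2 CPM, and Cst7 was at 2.45 and 1.17 CPM. Of 11 macrophage genes, 5, including Adgre1 and Csf1r, had no read in either group, and their summed level in a cell was at most 214 CPM. The most abundant macrophage genes were Lyz2 at 3.47 CPM in mature cells and Cd68 at 2.49 CPM in BMCPs. Summed levels above 1000 CPM occurred for B cell genes in 7 BMCPs, numbers 46 and 80 among them, and 4 mature cells, and for dendritic cell genes in 3 BMCPs, with 33849 CPM in number 46. They also occurred for T cell genes in 2 BMCPs and 1 mature cell, and for mesothelial and stromal genes in 2 BMCPs and 4 mature cells. The part of the cells other than 46 and 80 in the results was not tested.

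Several of the serpins have near copies on chromosome 13, and a read of 50 bases that lies inside a shared stretch cannot be given to a single gene. The longest shared stretches are shown because they bound how well the levels below belong to the named gene. Capitals mark the bases that the 2 genes have in common, lower case marks 12 flanking bases on each side, and all are coding sequence, 5′ to 3′ on the gene's strand, from GENCODE M21 transcripts on GRCm38. Serpinb1a at chr13:32845333-32845437 (minus strand) and Serpinb1b at chr13:33091691-33091795 (plus strand) share 81 bases.
Serpinb1a: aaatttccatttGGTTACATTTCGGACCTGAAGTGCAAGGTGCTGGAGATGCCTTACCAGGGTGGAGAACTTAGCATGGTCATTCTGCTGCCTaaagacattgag
Serpinb1b: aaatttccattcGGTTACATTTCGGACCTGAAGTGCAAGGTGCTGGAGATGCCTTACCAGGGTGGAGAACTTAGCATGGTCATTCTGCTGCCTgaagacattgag
Serpinb6a at chr13:33922947-33923027 (minus strand) and Serpinb6b at chr13:32974938-32975018 (plus strand) share 57 bases.
Serpinb6a: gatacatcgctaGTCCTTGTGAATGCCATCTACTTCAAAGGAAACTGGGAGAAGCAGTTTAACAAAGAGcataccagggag
Serpinb6b: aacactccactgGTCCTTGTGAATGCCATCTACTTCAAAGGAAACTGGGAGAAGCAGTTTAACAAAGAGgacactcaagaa
Serpinb9 at chr13:33008086-33008795 and Serpinb9b at chr13:33032996-33033554 (both plus strand) share 62 bases across an exon junction.
Serpinb9: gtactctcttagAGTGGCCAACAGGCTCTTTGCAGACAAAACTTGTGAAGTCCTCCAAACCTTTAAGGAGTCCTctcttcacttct
Serpinb9b: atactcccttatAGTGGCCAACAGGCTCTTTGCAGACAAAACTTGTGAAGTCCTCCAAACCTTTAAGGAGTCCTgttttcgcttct

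Such stretches are a small part of most of these genes. Another gene held 2.81% of the distinct 50-base windows of Serpinb1a, 2.92% of Serpinb6b, 0.378% of Serpinb9, 0.303% of Serpine2 and none of Serping1, Cst3, Cst7 or Cstb. For Serpinb6a the share was 25.1%, mostly with its neighbours Nqo2 (715 windows), 1110046J04Rik (488) and Ripk1 (194) on either strand, and only 8 windows with Serpinb6b. Whether counting used the strand is not given in the sources used here, so the Serpinb6a level is the least certain of the set.

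Of the 9 genes, 6 reached 5 CPM in either group, and all 6 were found in both groups. Their pooled CPM in the 2 groups was within 2-fold, while the medians over cells of Serpinb6a and Cstb, given below, were further apart. Serpinb1a, the clade B inhibitor of cathepsin G, elastase and chymase-like enzymes, led by far and took 77.5% of the reads of the 9 genes in each group. Cst3 and Cst7 followed, then Cstb and Serpinb6a, and Serpinb9 was read in a minority of cells. Serpinb6b, Serpine2 and Serping1 stayed below 5 CPM. In pooled CPM none of the 6 was at least 2-fold higher in BMCPs and none was at least 2-fold higher in mature cells. Of the 10556 genes at this level 19.2% and 9.90% were, or 29.1% in either direction. With TMM scaling (edgeR), these shares of all genes were 14.2% and 13.4%, and with scaling to the ERCC spike-in they were 7.25% and 32.7%. Under ERCC scaling Serpinb1a, Serpinb6a, Cst3 and Cstb were also at least 2-fold higher in mature cells, though not all of them without BMCP number 55.

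**Figure D1:**
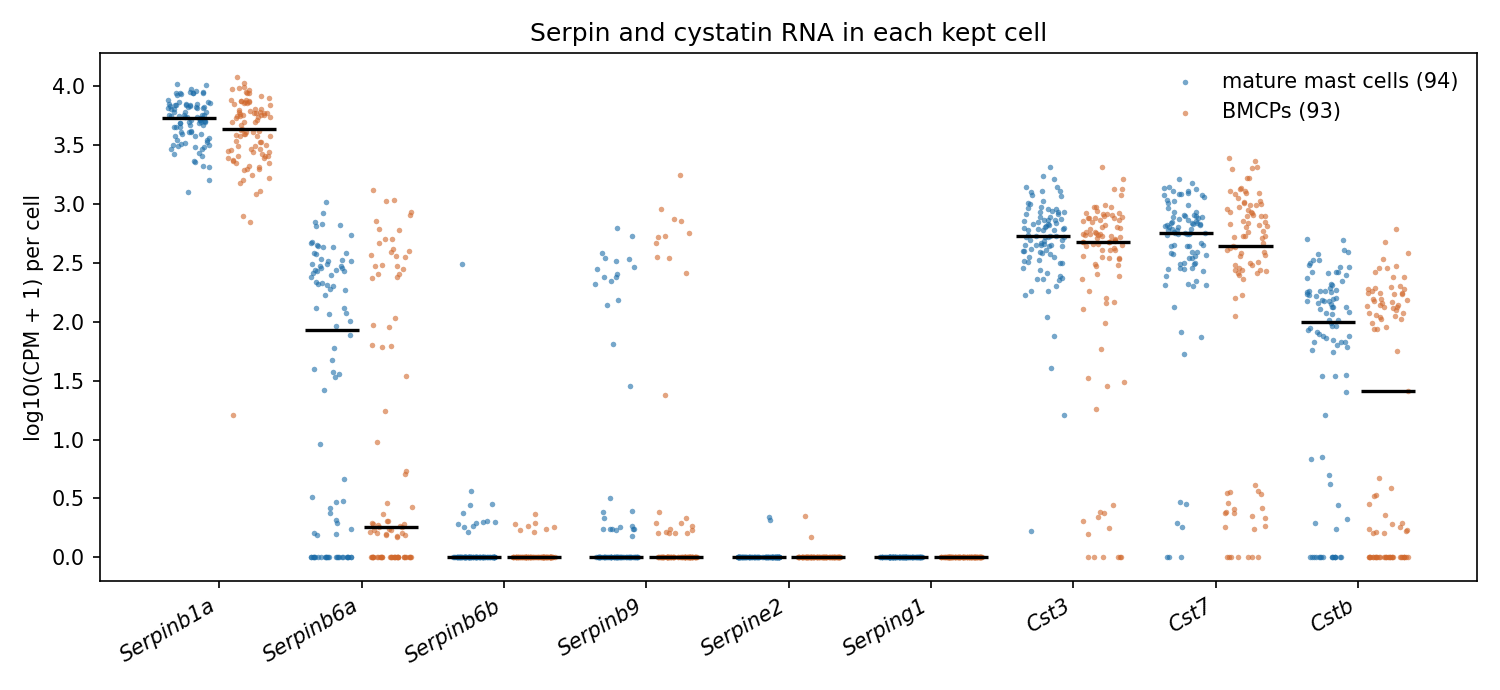
Level of each of the 9 genes in each kept cell, as log10(CPM + 1), for 94 mature cells (blue) and 93 BMCPs (orange), with 1 point per cell and a black line at the group median. Serpinb1a lies above the other 8 genes in most cells, Cst3 and Cst7 form a second tier, and Serpinb6a, Serpinb9 and Cstb split between cells near 0 and cells around 100 CPM or more.

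Serpinb1a (ENSMUSG00000044734; chr13:32842092-32851185, minus strand, GRCm38) ranged from 1265 to 10534 CPM in mature cells with a median of 5381, and from 15.2 to 12028 CPM in BMCPs with a median of 4331. The groups overlapped over nearly their whole ranges, and the lowest BMCP was number 80, a cell with B cell genes. The pooled level was 5450 CPM in mature cells (5437 to 5463) and 4896 CPM in BMCPs (4883 to 4908), giving a log2 ratio of mature over BMCP of 0.15. All 94 mature cells and 92 of 93 BMCPs were at 100 CPM or more. Its near copies were almost silent beside it, with 102 and 81 reads for Serpinb1b and 132 and 119 for Serpinb1c, against 647651 and 585143 for Serpinb1a.

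Serpinb6a (ENSMUSG00000060147; chr13:33917918-34002794, minus strand) encodes another clade B inhibitor, known to block cathepsin G. It ranged from 0 to 1039 CPM in mature cells with a median of 84.4, and from 0 to 1321 CPM in BMCPs with a median of 0.824. Cells at 0 and cells above 1000 CPM occurred in both groups, so the ranges overlapped. It reached 100 CPM in 46 of 94 mature cells (48.9%, 38.5 to 59.5), against 26 of 93 BMCPs (27.96%, 19.1 to 38.2). The pooled levels were closer, 178 CPM (176 to 181) and 140.2 CPM (138 to 142), giving a log2 ratio of 0.34. That ratio was -0.24 in the first of the 2 blocks of columns of the table, each of which holds cells of both groups, and 1.00 in the second, so it had no settled direction.

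Serpinb6b (ENSMUSG00000042842; chr13:32965209-32979067, plus strand) reached 100 CPM in a single cell. Mature mast cell number 5 held 466 of the 485 reads of its group, at 306.5 CPM, beside 53 reads of Serpinb6a. No other mature cell had more than 4 reads, and no BMCP more than 2. The pooled log2 ratio was 2.24, and 0.11 without that cell. A read of Serpinb6b occurred in 13 mature cells, number 5 among them, and 11 of the 13 had at least 100 CPM of Serpinb6a. It also occurred in 8 BMCPs, all 8 with that much Serpinb6a.

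Serpinb9 (ENSMUSG00000045827; chr13:33003250-33017957, plus strand) encodes the intracellular inhibitor of granzyme B. Its median was 0 CPM in both groups, and its highest level was 622 CPM in mature cells and 1759 CPM in BMCPs. At least 100 CPM was reached in 15 of 94 mature cells (15.96%, 9.22 to 24.95), against 11 of 93 BMCPs (11.8%, 6.05 to 20.2). The pooled level was 50.2 CPM in mature cells (48.9 to 51.5) and 65.4 CPM in BMCPs (63.98 to 66.9), giving a log2 ratio of -0.38. Single cells set this value, which was -0.08 without BMCP number 84 and -0.62 without mature cell number 93. In the 2 blocks of columns it was 0.67 and -0.88, and it was 0.52 under ERCC scaling.

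The extracellular serpins were not detected or nearly so. Serpine2 (ENSMUSG00000026249; chr1:79794197-79861180, minus strand) encodes protease nexin 1, an inhibitor of thrombin, plasmin and urokinase, and had 3 reads in all mature cells and 2 in all BMCPs. Serping1 (ENSMUSG00000023224; chr2:84765387-84775444, minus strand) encodes the C1 inhibitor of the complement and contact systems and had 0 reads in both groups. A count of 0 allows up to 3 reads, or 0.0252 CPM in mature cells and 0.0251 CPM in BMCPs. Of 11 listed genes of the plasminogen, thrombin, contact and complement systems, 10 were matched and 3 reached 5 CPM. At least 2-fold higher were 0 of the 3 in mature cells and 2 in BMCPs, beside 9.90% and 19.2% of all genes. Plau, urokinase, was at 63.5 CPM in mature cells and 76.1 CPM in BMCPs. The thrombin receptor F2r, with a log2 ratio of -1.32, and the urokinase receptor Plaur, with -1.52, had 38.5% and 99.8% of their BMCP reads in 1 cell.

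Cst3 (ENSMUSG00000027447; chr2:148871722-148875692, minus strand) encodes cystatin C, the secreted inhibitor of cysteine cathepsins. It ranged from 0.678 to 2075 CPM in mature cells with a median of 534, and from 0 to 2057 CPM in BMCPs with a median of 478. The upper ends matched closely, and the groups differed in how many cells were low. At least 100 CPM was reached in 90 of 94 mature cells (95.7%, 89.5 to 98.8), against 74 of 93 BMCPs (79.6%, 69.9 to 87.2). The pooled level was 608 CPM (604 to 613) in mature cells and 498 CPM (494 to 502) in BMCPs, giving a log2 ratio of 0.29.

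Cst7 (ENSMUSG00000068129; chr2:150570415-150578944, plus strand) encodes cystatin F, an inhibitor that works inside endosomes and lysosomes and acts on cathepsin C. It ranged from 0 to 1625 CPM in mature cells with a median of 569, and from 0 to 2460 CPM in BMCPs with a median of 439. The pooled levels were nearly equal at 611 CPM (607 to 615) and 623 CPM (618 to 627), giving a log2 ratio of -0.03. The sign was positive under TMM scaling, at 0.22, and under ERCC scaling, at 0.88. BMCPs were the more spread group, with 70 of 93 (75.3%, 65.2 to 83.6) at 100 CPM or more against 84 of 94 mature cells (89.4%, 81.3 to 94.8).

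Cstb (ENSMUSG00000005054; chr10:78425669-78427622, plus strand) encodes stefin B, a cystatin of the cytosol. It ranged from 0 to 501 CPM in mature cells with a median of 99.5, and from 0 to 615 CPM in BMCPs with a median of 24.9. Both groups contained cells at 0, and their upper ends were similar. The pooled level was 132 CPM (130.2 to 134) and 96.6 CPM (94.8 to 98.4), giving a log2 ratio of 0.45, the highest of the 6 genes. At least 100 CPM was reached in 47 of 94 mature cells (50.0%, 39.5 to 60.5), against 41 of 93 BMCPs (44.1%, 33.8 to 54.8).

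Per kilobase of exon, the order of the pooled levels of the 7 genes other than Serpine2 and Serping1 was the same in both groups. In mature cells it was Serpinb1a at 2367 CPM per kb, Cst7 at 620, Cst3 at 481, Cstb at 219, Serpinb6a at 32.95, Serpinb9 at 14.4 and Serpinb6b at 1.80. In BMCPs it was Serpinb1a at 2126 CPM per kb, Cst7 at 632, Cst3 at 393, Cstb at 160, Serpinb6a at 25.9, Serpinb9 at 18.73 and Serpinb6b at 0.0333. Over mature cells the middle 50% of values ran from 1672 to 3002 CPM per kb for Serpinb1a and from 315 to 803 for Cst7, so only the first step was clear of the spread between cells. Cst7 and Cst3, the latter from 285 to 615, were not separated, nor was Cstb, from 13.8 to 302, from Cst3. In BMCPs the range for Serpinb1a, 1150 to 2780, also lay above that for Cst7, 113 to 910.

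A cell usually had several of these RNAs at once. At least 100 CPM was reached by 2 of the 9 genes in 5 mature cells, by 3 in 22, by 4 in 34 and by 5 in 33. Among BMCPs it was 1 gene in 6 cells, 2 in 15, 3 in 25, 4 in 32 and 5 in 15. No mature cell had fewer than 2, and no cell of either group had more than 5. Cst3 and Cst7 had a Spearman rho of 0.29 across 93 BMCPs and 0.06 across 94 mature cells. In the 2 blocks it was 0.18 and 0.35 in BMCPs and 0.23 and -0.11 in mature cells, so the order of the groups turned between blocks.

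The span of these 6 chosen inhibitors was narrower than that of the proteases, though other inhibitors, given further below, went past 2-fold both ways. The log2 ratios of the 6 inhibitors ran from -0.38 for Serpinb9 to 0.45 for Cstb with a median of 0.22, and 4 were positive. The median of all 10556 genes was -0.25, and 5 of the 6 lay above it. Scaling shifted this zero point, to 0.004 under TMM and 0.68 under ERCC scaling. With ERCC scaling 4 of the 6, Serpinb1a, Serpinb6a, Cst3 and Cstb, passed 2-fold higher in mature cells, as did 32.7% of all genes. Without BMCP number 55 fewer of these 4 passed, the share of all genes was 25.1% and their median was 0.47. ERCC scaling takes in RNA content, since the median number of endogenous reads for each ERCC read was 939 in mature cells and 562 in BMCPs.

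**Figure D2:**
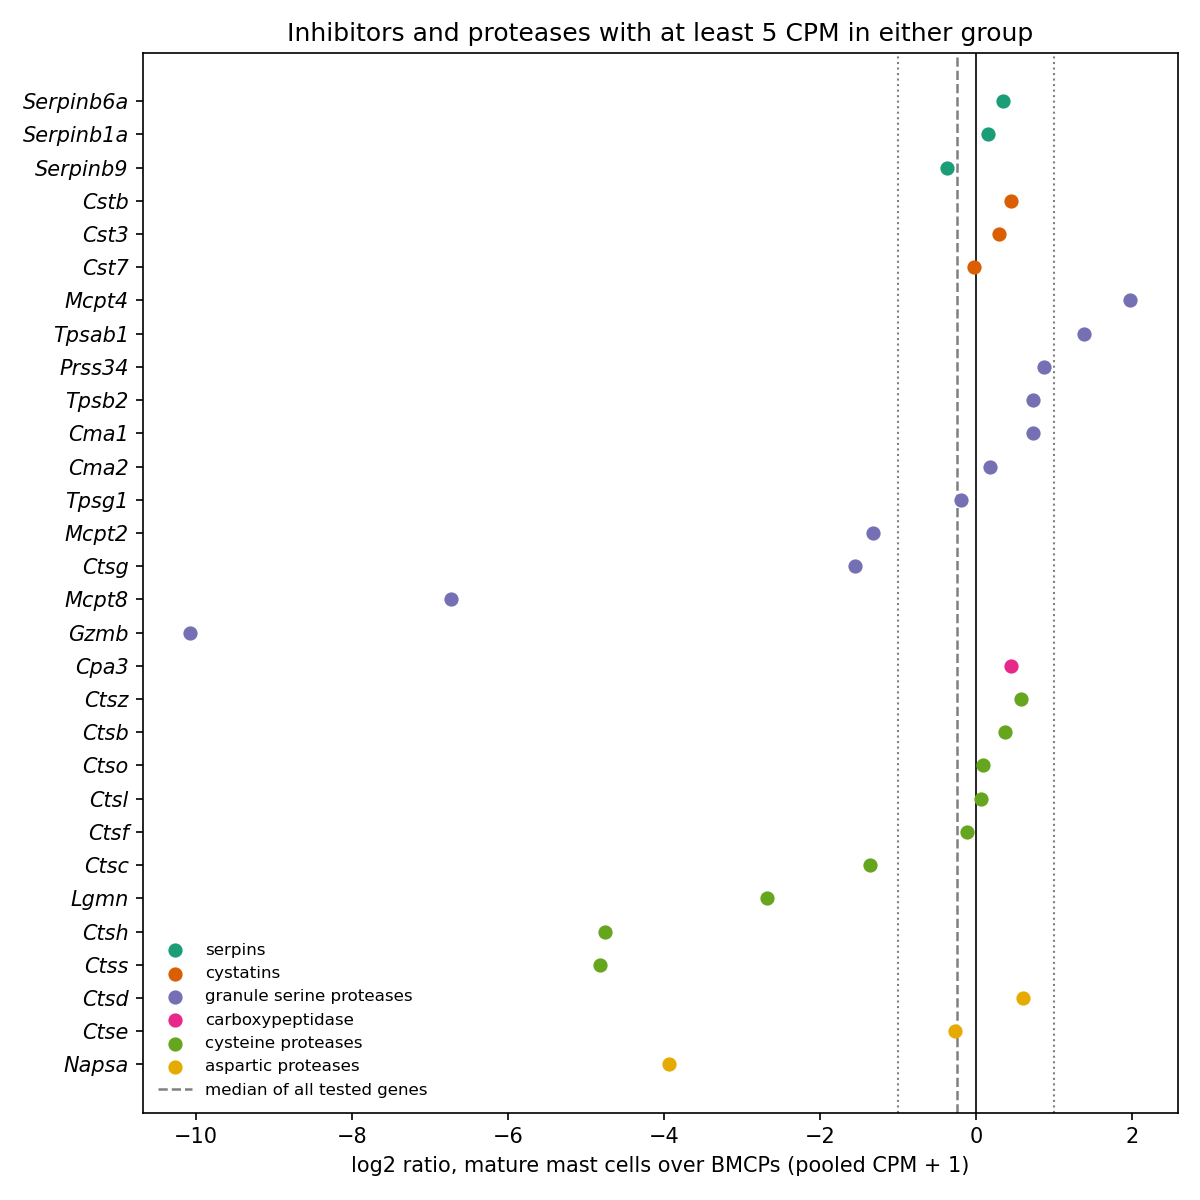
Log2 ratio of pooled CPM + 1, mature cells over BMCPs, for the 6 inhibitors and the proteases with at least 5 CPM in either group. Each point is 1 gene, coloured by list, and the other inhibitors given further below are not shown. Dotted lines mark 2-fold either way and the dashed line the median of all genes, -0.25. The 6 inhibitors lie between -0.38 and 0.45, while proteases run from -10.07 (Gzmb) to 1.98 (Mcpt4).

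Of 17 granule serine proteases, 11 reached 5 CPM, 2 of them at least 2-fold higher in mature cells and 4 at least 2-fold higher in BMCPs. The shares of all genes were 9.90% and 19.2%. Mcpt4, a chymase, ranged from 22.4 to 42234 CPM in mature cells with a median of 25503, and from 13.2 to 46355 CPM in BMCPs with a median of 33.4, a pooled log2 ratio of 1.98. Gzmb, granzyme B, ranged from 0 to 15.9 CPM in mature cells and from 0.648 to 22013 CPM in BMCPs with a median of 3872, giving a log2 ratio of -10.07. Mcpt8, a protease typical of basophils, had a log2 ratio of -6.72, Ctsg, cathepsin G, -1.55 and Mcpt2, another chymase, -1.32. The chymase Cma1 had 93353 CPM in mature cells and 56528 CPM in BMCPs, giving a log2 ratio of 0.72. The ratio was 0.73 for the tryptase Tpsb2, 1.38 for Tpsab1 and 0.45 for the carboxypeptidase Cpa3.

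The cysteine proteases that cystatins block were less abundant. Of 11, 9 reached 5 CPM, with 0 at least 2-fold higher in mature cells and 4 in BMCPs. Of all genes, 9.90% and 19.2% were. Ctsc, cathepsin C, had 215 CPM in mature cells and 554 CPM in BMCPs, giving a log2 ratio of -1.36. The other 3, Ctsh, Ctss and Lgmn, rested on few cells, and BMCP number 80, a cell with B cell genes, held 55.2%, 80.4% and 100% of their BMCP reads. Ctsb had 479 and 370 CPM, and Ctsz 326 and 219 CPM. Among the aspartic proteases, cathepsin D (Ctsd) had 5877 and 3887 CPM.

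Inhibitor reads were then counted per 1000 protease reads of the same cells, which needs no library total. These are ratios of reads, not of molecules. Serpinb1a gave 647651 of the 675285 serpin reads in mature cells and 585143 of 609733 in BMCPs, so the serpin sum was mostly that gene. The tryptases Tpsb2 and Tpsab1 gave 9742917 of the 24183860 granule serine protease reads in mature cells and 5872047 of 14857171 in BMCPs. The 6 serpins had 27.9 reads per 1000 granule serine protease reads in mature cells and 41.04 in BMCPs, giving a log2 ratio of -0.56. The median over cells was 27.8 in mature cells, with quartiles of 18.9 and 36.8, and 42.2 in BMCPs, with quartiles of 28.03 and 69.5. The ratio was therefore lower in mature cells even though their serpin RNA was not, the summed serpin level being 5683 and 5101 CPM against 203515 and 124302 CPM of granule serine proteases. It was -0.54 and -0.58 in the 2 blocks of columns.

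For the cystatins the direction was the opposite. They had 1046 reads per 1000 cysteine protease reads in mature cells and 829 in BMCPs, giving a log2 ratio of 0.34, which was 0.36 and 0.31 in the 2 blocks and 0.27 without the 2 BMCPs with B cell genes. The median over cells was 1070 in mature cells, with quartiles of 652 and 1741, and 763 in BMCPs, with quartiles of 431 and 1467. The summed cystatin level was 1352 and 1217 CPM. Ctsc gave 25548 of the 153537 cysteine protease reads in mature cells and 66229 of 175519 in BMCPs. The direction of the cystatin ratio rested on that gene.

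Single inhibitor and protease pairs differed in size and direction. Serpinb1a had 58.4 reads per 1000 Cma1 reads in mature cells and 86.6 in BMCPs. Against Ctsg, another protease it inhibits, the direction was the opposite, at 13166 and 4019.7 reads of Serpinb1a per 1000 Ctsg reads. Cst7 had 2842 reads per 1000 Ctsc reads in mature cells and 1124 in BMCPs. Serpinb9 had 13.9 reads per 1000 Gzmb reads in BMCPs, while the mature cells had only 403 Gzmb reads in all, at most 12 in a cell. Serpinb6a had 2.17 and 2.85 reads per 1000 tryptase reads (Tpsb2 and Tpsab1) when pooled, while the medians over cells, 0.948 and 0.0176, had the opposite direction. Cst3 had 1269.6 and 1344 reads per 1000 Ctsb reads when pooled, and the medians over the 85 and 78 cells with a Ctsb read, 1332 and 1042, were again the other way round.

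Because Gzmb divides the BMCPs, the inhibitors were also read along it. Of 93 BMCPs, 60 had at least 100 CPM of Gzmb, a range of levels and not a cell type. The nearest cells were at 27.9 CPM below the limit and 543 CPM above it, so few lay near it. Both B cell gene cells, numbers 46 and 80, were among the 33 below the limit. The median number of endogenous reads for each ERCC read was 497 in the 60 cells and 731 in the 33, and the part of RNA content in what follows was not tested.

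Serpinb9 had no settled direction along its target protease. It reached 100 CPM in 6 of the 60 Gzmb-rich BMCPs (10%, 3.76 to 20.5) and in 5 of the other 33 (15.2%, 5.11 to 31.9), and its median was 0 CPM in both. Pooled levels were 56.3 and 81.5 CPM, and the log2 ratio of -0.53 was 0.13 without BMCP number 64 and -1.12 without number 84. In the 2 blocks of columns it was 4.599 and -0.79, so it turned from one block to the other. Spearman's rho between Serpinb9 and Gzmb was -0.04 across the 93 cells.

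Serpinb1a was lower in the Gzmb-rich BMCPs. It ranged from 699 to 12028 CPM there with a median of 3981, and from 15.2 to 10757 CPM in the other BMCPs with a median of 5975. The ranges overlapped widely. The pooled log2 ratio of Gzmb-rich over other BMCPs was -0.35, and was -0.40 and -0.29 in the 2 blocks, -0.93 under ERCC scaling and -0.44 without the 2 cells with B cell genes. The median of all genes for this split was 0.29, and 27.6% of 10624 genes were at least 2-fold higher and 17.5% at least 2-fold lower in the Gzmb-rich cells. In pooled CPM none of the 6 inhibitors was past 2-fold in either direction. Under ERCC scaling Serpinb6a at -1.10, Cst3 at -1.08 and Cstb at -1.37 were past 2-fold lower in the Gzmb-rich cells. No share of all genes is given for the split under that scaling.

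Cst3 and Cstb were lower in the Gzmb-rich BMCPs, and Cst7 depended on the measure. Cst3 had a median of 409 CPM in the Gzmb-rich cells and 555 CPM in the others, with 42 of 60 (70%, 56.8 to 81.2) and 32 of 33 (96.97%, 84.2 to 99.9) at 100 CPM or more. Cstb had medians of 0.935 and 118 CPM, with 20 of 60 (33.3%, 21.7 to 46.7) and 21 of 33 (63.6%, 45.1 to 79.6) at that level. Among BMCPs, cells under 100 CPM of Cst3 or Cstb were thus mostly Gzmb-rich, but so were 60 of all 93 BMCPs. The pooled log2 ratios were -0.50 for Cst3 and -0.80 for Cstb. The Cstb ratio was -0.34 and -0.998 in the 2 blocks. Cst7 had a higher pooled level in the Gzmb-rich cells, 664 against 551 CPM and a log2 ratio of 0.27, but a lower share at 100 CPM or more, 43 of 60 (71.7%, 58.6 to 82.5) against 27 of 33 (81.8%, 64.5 to 93.02). Its ratio was 0.72 and 0.04 in the 2 blocks and -0.31 under ERCC scaling. Serpinb6a had a log2 ratio of -0.53, which was -0.18 without BMCP number 9.

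**Figure D3:**
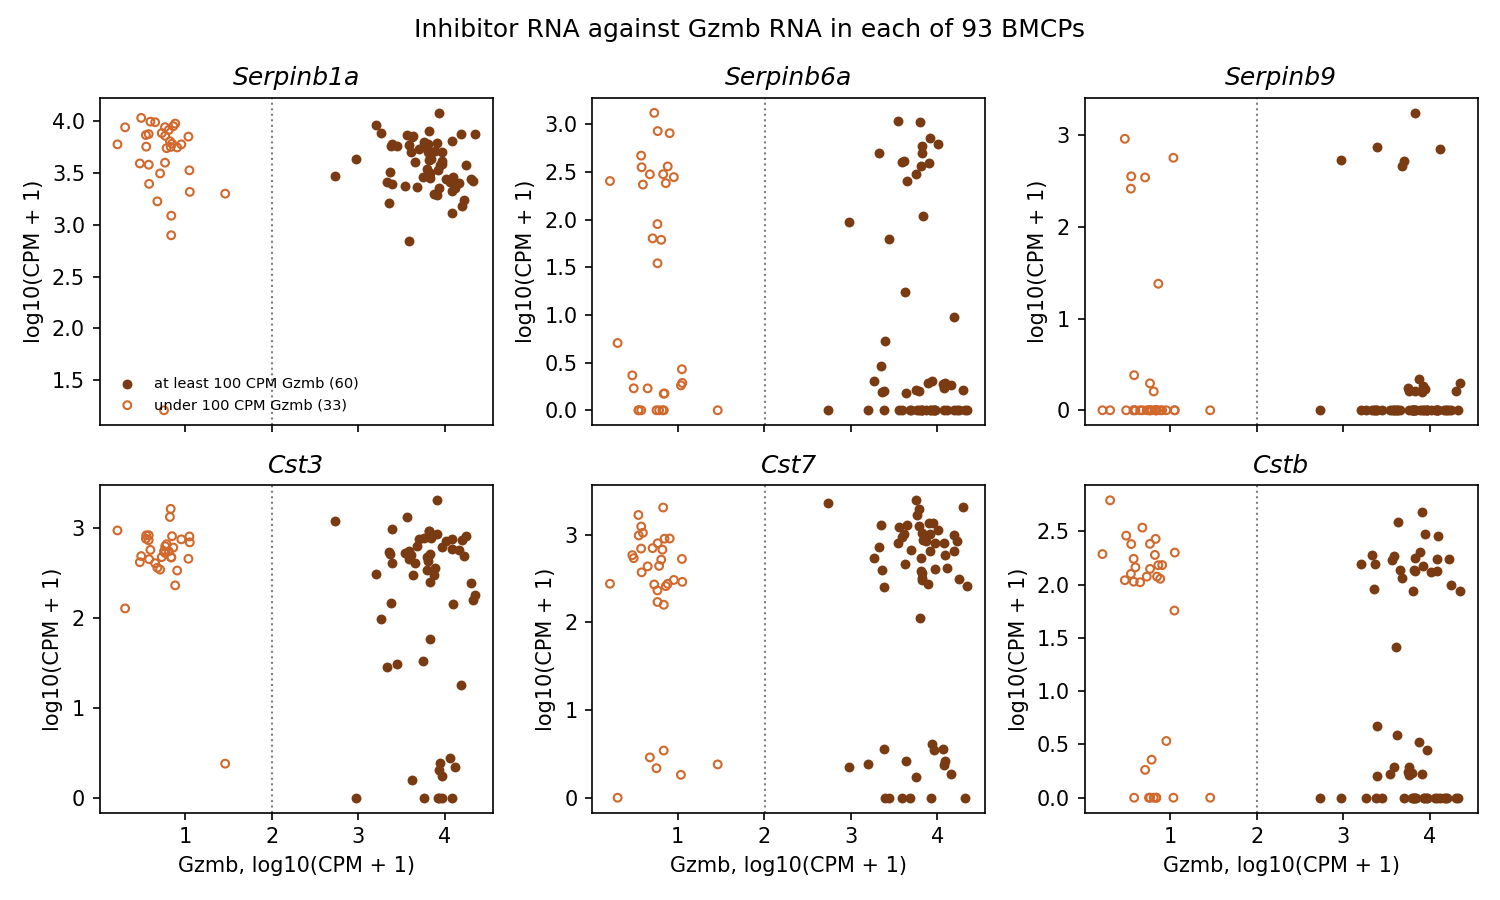
Level of 6 inhibitors against Gzmb in each of 93 BMCPs, both as log10(CPM + 1), with filled points for the 60 cells with at least 100 CPM of Gzmb, open points for the other 33 and a dotted line at the limit. Of the 19 cells under 100 CPM of Cst3, 18 are Gzmb-rich, while cells with Serpinb9 are few on both sides.

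Along the same split some proteases moved more than the inhibitors and some less. The pooled log2 ratio of Gzmb-rich over other BMCPs was -3.97 for Tpsab1, -2.94 for Mcpt4, -1.22 for Cma1, -0.90 for Ctsd, -0.71 for Tpsb2 and -0.48 for Cpa3. It was 7.61 for Mcpt8 and 2.28 for Ctsc, but only -0.16 for Ctsg and -0.10 for Ctsb. Serpin reads per 1000 granule serine protease reads were 47.9 in the Gzmb-rich cells and 34.2 in the others, beside 27.9 in mature cells. Cystatin reads per 1000 cysteine protease reads were 749 and 997, beside 1046 in mature cells. Without numbers 46 and 80 the value in the other BMCPs was 1181, above that of mature cells, so the order of these 2 was not settled. The lower cystatin ratio of the Gzmb-rich BMCPs rested on Ctsc, which had 59358 reads there and 6871 in the other BMCPs.

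Rank correlations between inhibitors and proteases were computed over the cells of each group, 78 pairs per group, as a description of cells that share library preparation and a common total. An absolute rho of 0.3 was reached by 13 pairs in the 93 BMCPs and by 2 in the 94 mature cells, and the median absolute rho was 0.13 and 0.09. Of the genes ranked further below, 0.51% to 2.65% reached 0.3 with a ranked inhibitor in BMCPs, and 0.28% to 0.70% in mature cells. Proteases were also correlated with each other in BMCPs, so the 13 pairs are not separate relations. Gzmb had a rho of -0.68 with Cma1, -0.62 with Tpsab1 and 0.61 with Mcpt8, but -0.15 with Ctsg and -0.10 with Prss34. In BMCPs Serpinb1a had a rho of 0.42 with Tpsab1, 0.38 with Mcpt4, 0.37 with Cma1, 0.36 with Ctsd and 0.33 with Cpa3. Its rho with Tpsb2 was only 0.19. Serpinb1a had -0.33 with Ctsc and -0.30 with Gzmb. With Mcpt8 it had -0.299, just short of the limit and not among the 13 pairs. As Pearson's r of log2(CPM + 1), the values for Ctsc and Gzmb were -0.11 and -0.08.

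Serpinb6a had a rho of 0.44 with Tpsb2, 0.38 with Cma1, 0.34 with Ctsd, 0.33 with Mcpt4, 0.30 with Tpsab1 and -0.34 with Mcpt8. With Ctsd it was 0.14 and 0.54 in the 2 blocks. Without the 2 cells with B cell genes, Serpinb1a had 0.36 with Mcpt4, 0.32 with Cma1 and 0.28 with Cpa3, and Serpinb6a had 0.43 with Tpsb2. Serpinb1a also had a rho of 0.33 with endogenous reads per ERCC read in BMCPs, and Cstb 0.36, and the part of RNA content was not tested. In mature cells the 2 pairs were Serpinb1a with Cpa3 at 0.31 and Cstb with Tpsb2 at -0.34, and Serpinb1a with Mcpt4 was at 0.12. The difference between the groups was not tested.

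**Figure D4:**
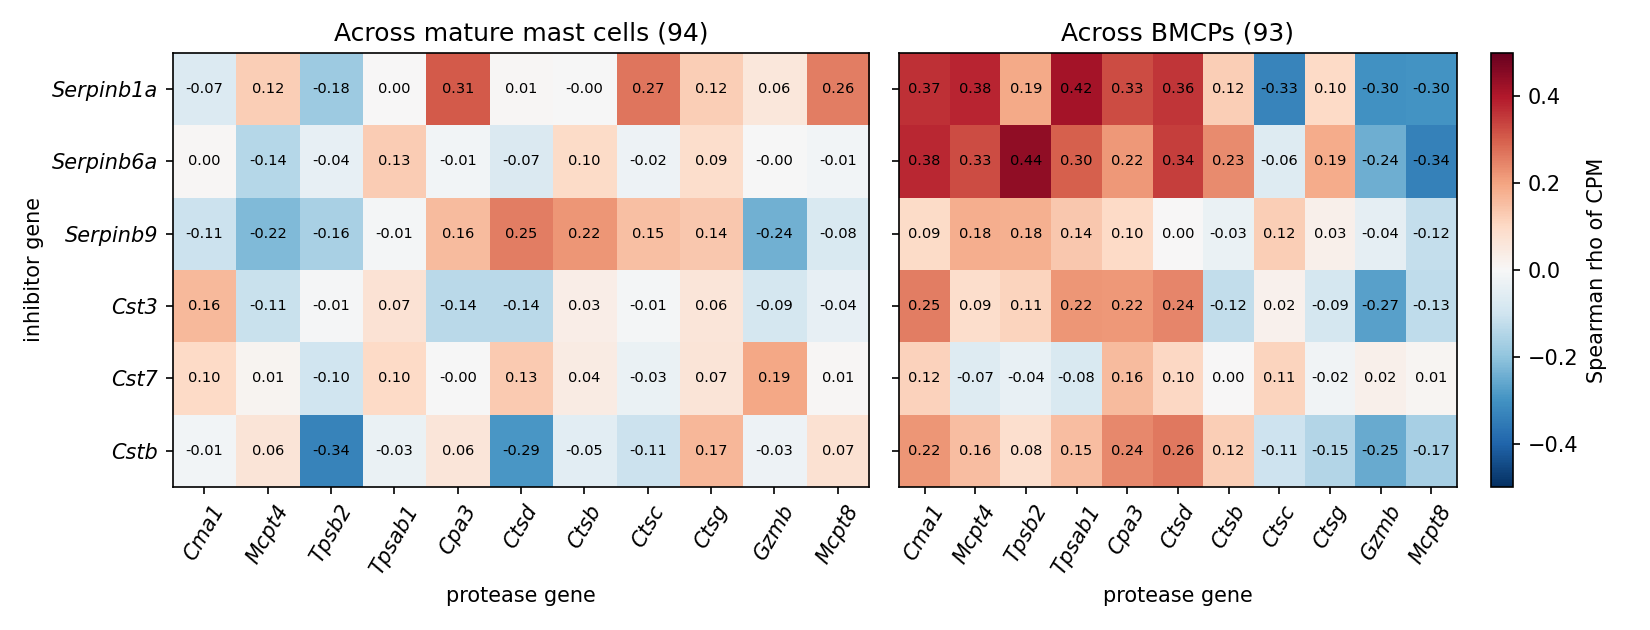
Spearman's rho between 6 inhibitors (rows) and 11 proteases (columns) across 94 mature cells (left) and 93 BMCPs (right), on a colour scale from -0.5 to 0.5. In BMCPs the rows of Serpinb1a and Serpinb6a are positive for Cma1, Mcpt4, Tpsab1 and Ctsd and negative for Gzmb and Mcpt8, and in mature cells Serpinb1a with Mcpt4 is at 0.12.

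Among 2132 genes in mature cells and 1771 in BMCPs with at least 50 CPM and a read in 50% of the group's cells, those most like each inhibitor were ranked by rho. In mature cells Serpinb1a was closest to Tubb6 at 0.51, Ecm1 at 0.46 and Spg21 at 0.36. In BMCPs it was closest to Tpsab1 at 0.42, Mtpn at 0.41 and Myadm at 0.41. Serpinb6a in BMCPs was closest to Vwa5a at 0.45, Kcnq1 at 0.45 and Tpsb2 at 0.44, and in mature cells to Ctnna1 at 0.35.

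For the cystatins, Cst3 in BMCPs was closest to Cyb5a at 0.40, Pmp22 at 0.38 and H2-Q6 at 0.35, and in mature cells to Elovl1 at 0.37. Cstb was closest to H2-T23 at 0.42 in BMCPs and to Anxa1 at 0.41 in mature cells. Cst7 was closest to Spop at 0.36 in BMCPs and to BC031181 at 0.38 in mature cells. These genes are the top of each ranking by choice, so their rho is high by selection. Of all candidate genes, 0.28% to 2.65% reached an absolute rho of 0.3 with any 1 of the 5 inhibitors ranked.

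Across the whole family, 83 serpin, cystatin and stefin genes were in the table, and only 7 reached 5 CPM in either group, the 6 above and Serpini1. No read was found for 46. The Serpinb cluster of chromosome 13 held 15 genes over 1.16 Mb, of which 3 (Serpinb1a, Serpinb9 and Serpinb6a) reached 5 CPM, and 5 had no reads. The Cst cluster of chromosome 2 held 8 genes over 1.81 Mb, with 2 (Cst3 and Cst7) at 5 CPM and 3 with no reads. A level of 5 CPM was thus reached by a few genes of each cluster only.

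**Figure D5:**
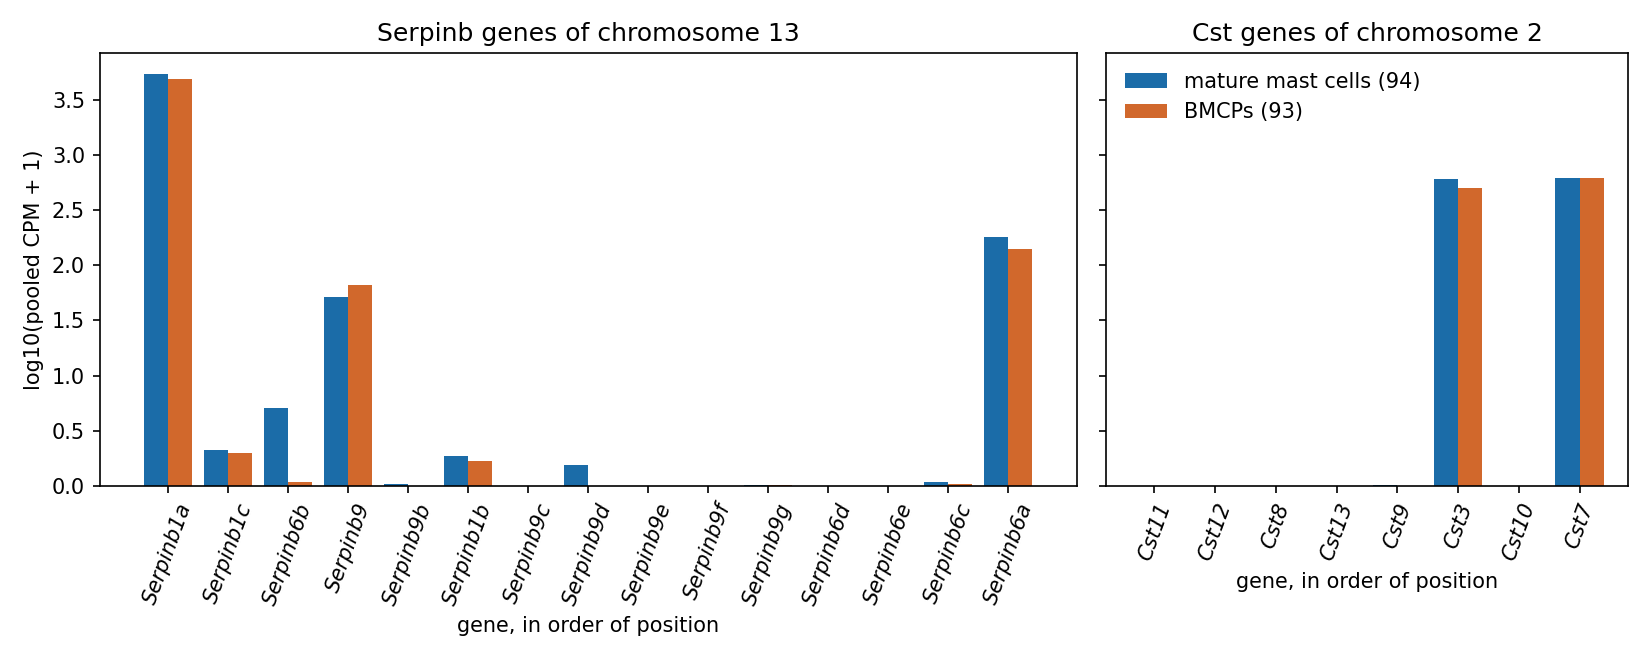
Pooled level of each gene of the chromosome 13 Serpinb cluster (left) and the chromosome 2 Cst cluster (right), as log10(CPM + 1), in order of position, for mature cells (blue bars) and BMCPs (orange bars). In the left cluster Serpinb1a, Serpinb6a and Serpinb9 are the tall bars in both groups, and in the right cluster Cst3 and Cst7 stand alone.

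Other protease inhibitors included a few genes past 2-fold. Of 58 listed, 26 had no read and 8 reached 5 CPM, 2 at least 2-fold higher in mature cells and 2 in BMCPs, where 29.1% of all genes were past 2-fold in either direction. Timp2, an inhibitor of matrix metalloproteases, had 148 and 22.0 CPM, giving a log2 ratio of 2.69. Wfdc1, a protein with a WAP domain, had 248 and 52.6 CPM and a ratio of 2.22. A single BMCP held 35.9% of the Timp2 reads of its group and 35.2% of the Wfdc1 reads. Higher in BMCPs were Serpini1, neuroserpin, at 32.4 and 68.5 CPM with a ratio of -1.06, and Cast, the calpain inhibitor calpastatin, at 45.5 and 93.9 CPM with a ratio of -1.03. BMCP number 24 held 34.2% of the Serpini1 reads of its group. The other 4 were Spint2 at -0.26, Pebp1 at 0.02, Tfpi at -0.49 and Xiap at -0.11.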

How the data were processed

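Single cells were sorted into plates, and their poly(A) RNA was copied from an oligo-dT primer, amplified by PCR with ERCC spike-in RNA and sequenced without molecular identifiers, per the labels' protocols. The deposited table holds raw HTSeq read counts per gene for each cell, with no normalization by the authors. Per the submitters' processing notes, GSNAP, HTSeq 0.5.3p3 and mm10 were used. The annotation release and strand setting are not given in the sources used here. Reads outside genes were 12.5% (mature) and 16.2% (BMCPs) and were left out of totals with ERCC rows.

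Symbols and coordinates came from GENCODE M21 on GRCm38, which matched 45229 of 46078 identifiers. Cells with at least 100000 endogenous reads were kept, 94 mature mast cells and 93 BMCPs. No doublet caller was run, because wells were sorted singly. Pooled CPM is summed reads over summed totals, and log2 ratios add 1 CPM to each group. Intervals are exact Poisson for CPM and Clopper-Pearson for shares of cells. PCR reads are not independent molecules. Blocks of columns were read from the table's column order and are not labelled as batches. Genes were named as all 9 members, up to 8 of each protease and inhibitor list, and the 3 genes most alike. The members and lists were chosen with earlier results of these data known. The computation was tested on simulated data and used Python 3.11.15, scipy 1.17.1 and edgeR 4.0.16 (TMM factors only).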

Additional observations from a re-analysis of the deposited data

How the results depend on the processing

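No paired analysis was possible because no result comes from a test and the cell numbers of the labels only name cells. Alternatives were scaling, pooling, thinning to 100000 reads, the CPM added, cells left out and single blocks. ERCC scaling without BMCP number 55, leaving out single cells and all alternatives of the Gzmb split except its limits were chosen after seeing the data. The cause of a shift was not tested. No direction of the summed serpins or cystatins, or of either ratio to proteases, turned under any of them. None of these alternatives left Ctsc, on which the direction of the cystatin ratio rested, out of the cysteine proteases.

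The log2 ratio of the summed serpins, 0.16, was 0.40 under TMM, 1.07 under ERCC scaling (0.88 without BMCP number 55), 0.36 with totals without granule genes, 0.18 by the mean over cells, 0.17 thinned, 0.12 without the 2 BMCPs with B cell genes, and 0.14 and 0.17 in the blocks. That of the summed cystatins, 0.15, was 0.40, 1.06 (0.85), 0.36, 0.19, 0.19 and 0.13 in the same order, 0.22 and 0.087 in the blocks, and 0.17 without the top cell of each group. Leaving out each cell gave 0.13 to 0.18 and 0.13 to 0.19. Serpins per granule serine protease, at -0.56, gave -0.57 by the mean, -0.58 thinned, -0.54 and -0.58 in the blocks, -0.54 without the top cells and -0.60 by the cell median. Cystatins per cysteine protease, at 0.34, gave 0.36, 0.38, 0.36, 0.31, 0.35 and 0.49 in the same order, and 0.27 without the B cell gene cells. Members at least 2-fold higher in mature mast cells, 0, became 5 under ERCC scaling (Serpinb1a, Serpinb6a, Serpinb6b, Cst3 and Cstb). The Serpinb6b value rested on a single cell. There were 3 under ERCC scaling without BMCP number 55, and 1 (Serpinb6b) with totals without granule genes and in block 1. The shares of all genes were 9.90% in the main setting and 32.7%, 25.1%, 13.7% and 16.2% in these settings, in the same order. Of 15 inhibitor and protease pairs with an absolute rho of 0.3, none changed sign in 88 alternatives, and 7 stayed at 0.3 throughout. The 15 were picked by their rho in the same cells that the alternatives reuse, so a kept sign is no separate support.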

Other observations

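Prss34, a granule serine protease typical of basophils, was abundant in some cells of both groups and near 0 in most. It had 2899 pooled CPM in mature cells and 1580 CPM in BMCPs, but medians of 6.93 and 5.19 CPM, and at least 100 CPM was reached in 37 of 94 mature cells and 26 of 93 BMCPs. Napsa, an aspartic protease, had 10.4 CPM in mature cells and 174 CPM in BMCPs, giving a log2 ratio of -3.94, and reached 100 CPM in 3 and 28 cells. Tpsg1, a membrane-bound tryptase, had 1667 CPM in mature cells and 1913 CPM in BMCPs, giving a log2 ratio of -0.20, and reached 100 CPM in 94 of 94 mature cells and 71 of 93 BMCPs.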
